A study of Mus musculus with 22 samples.

Results

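In mice, muscle of atrial type runs from the left atrium along the pulmonary veins into the lung, so RNA of whole lung holds transcripts of heart muscle. Its contraction rests on thick filaments of myosin, thin filaments of actin held by troponin, and calcium that is released from and pumped back into the sarcoplasmic reticulum. The atrial form of this muscle is known for its own myosin light chains, for a secreted natriuretic peptide and for sarcolipin. Described here are 10 genes of atrial and pulmonary vein cardiomyocytes, chosen by gene symbol, of 15971 genes in the lung table. They are the peptide gene Nppa, the thick filament genes Myl7, Myl4 and Mybpc3, the thin filament genes Tnnt2, Tnni3 and Actc1, and the calcium handling genes Ryr2, Sln and Pln. On GRCm38, GENCODE M21 places on the plus strand Nppa at chr4:148000722-148002079, Myl4 at chr11:104550663-104595753, Mybpc3 at chr2:91118144-91136516, Tnnt2 at chr1:135836354-135852260, Sln at chr9:53850164-53854560 and Pln at chr10:53337667-53345987. It places on the minus strand Myl7 at chr11:5896637-5898782, Tnni3 at chr7:4518305-4524229, Actc1 at chr2:114047282-114053548 and Ryr2 at chr13:11553102-12106945. The deposited values are per gene, so exons cannot be told apart.

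The lungs came from male C57BL/6J mice labelled 14 weeks old. The benzene group (n = 6 libraries) breathed 50 ppm benzene during 6 hours of each exposure day, with 5 exposure days per week and 6 weeks in all, and the air group (n = 6) breathed air cleaned by carbon and HEPA filters. Both groups are samples of whole lung RNA, and the labels do not say that each library came from a separate animal, so p-values may measure technical spread. Fewer muscle cells and less RNA per muscle cell cannot be told apart in such samples. How much of the pulmonary veins or of the atrium each dissection took along is not given in the sources used here.

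Recovered reads, in M, were 8.40 to 10.02 in benzene lungs and 8.30 to 11.92 in air lungs. Air replicate 5 stood apart, with 894 genes listed at 0, where the other 5 air lungs had 17 to 61. Its listed values summed to 1325410, against 937491 to 1010490 in the other lung libraries. The changes of the 10 genes are therefore also given without air replicate 5, as are other results that it moves. Transcript length set further libraries apart. Relative to the other libraries of their group (air replicate 5 left out of the air means), transcripts under 1 kb (1548 genes) were higher by a median of 0.19 and 0.27 on the log2 scale in benzene replicates 2 and 4, and by 0.36 in air replicate 5. Transcripts over 6 kb (1861 genes) were at -0.15 and -0.18 in the same benzene replicates and at -0.21 in air replicate 5. In the other 9 libraries those medians ran from -0.15 to 0.04 and from -0.07 to 0.11. The part of this difference in the results below was not tested.

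The atrial label was checked against chamber markers, compared per kilobase of transcript. The atrial light chain Myl7 had 175 to 324 normalized CPM per kb in benzene lungs and 333 to 923 in air lungs, while Myl2, the ventricular and slow muscle counterpart, had 0 to 0.345 in benzene lungs and 18.4 to 31.0 in air lungs. Myh7 had 2.58 to 3.44 in benzene lungs and 6.34 to 8.99 in air lungs, against 39.2 to 55.5 and 36.6 to 120 for Myh6. Hey2 had 1.37 to 2.40 in benzene lungs and 0.955 to 3.06 in air lungs. Nppb, a peptide gene related to Nppa, is not read here as a chamber marker. It had 0 to 0.302 in benzene lungs and 0.319 to 4.03 in air lungs, against 75.0 to 107 and 205 to 309 for Nppa. Myl3, an essential light chain of ventricle and slow muscle, was present in all lungs, at 72.0 to 109.9 per kb with benzene and 21.3 to 84.2 with air. Unlike Myl2 and Myh7, it was not low beside the atrial genes in benzene lungs. Its range there was close to that of Nppa and above that of Myh6, while in air lungs it lay below Nppa.

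Promoters of 3 genes are shown because their genes span the responses: Nppa fell most, Myl7 is the gene the others were set against, and Pln fell least among the genes that passed the test. Each is the 250 bases before the RefSeq start on GRCm38.p6, read 5′ to 3′ in the direction of the gene, at chr4:148000472-148000721 (plus strand) for Nppa, chr11:5898783-5899032 (minus strand) for Myl7 and chr10:53337436-53337685 (plus strand) for Pln. Capitals mark matches, on either strand, to motifs of factors known from heart muscle. The GATA motif was searched as AGATAA and also in the form TGATAA. The element of the factor NKX2-5 was searched as TNAAGTG. The TATA box was searched as TATAAA, and the CArG box, which serum response factor is known to bind, by its consensus.
Nppa: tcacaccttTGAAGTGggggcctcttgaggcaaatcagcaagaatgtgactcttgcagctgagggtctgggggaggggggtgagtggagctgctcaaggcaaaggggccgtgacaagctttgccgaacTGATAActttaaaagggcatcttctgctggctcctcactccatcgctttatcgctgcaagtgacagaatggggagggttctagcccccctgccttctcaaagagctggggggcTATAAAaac
Myl7: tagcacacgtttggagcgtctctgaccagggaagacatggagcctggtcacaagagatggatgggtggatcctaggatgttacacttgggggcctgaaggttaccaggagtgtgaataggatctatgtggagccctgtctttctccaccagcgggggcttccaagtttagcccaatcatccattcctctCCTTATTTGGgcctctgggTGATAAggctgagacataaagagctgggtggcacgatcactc
Pln: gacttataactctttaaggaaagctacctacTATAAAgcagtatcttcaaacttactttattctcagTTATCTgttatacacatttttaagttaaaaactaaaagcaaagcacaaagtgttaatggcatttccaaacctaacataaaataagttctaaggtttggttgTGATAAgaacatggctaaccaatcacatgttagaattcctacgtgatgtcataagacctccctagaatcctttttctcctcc
The marked matches do not overlap one another. The 9 genes with a RefSeq window had 10 windows, as Tnnt2 had more than 1. Of these 10 windows, 5 held GATA, against 16.6% of 32851 windows of this length. A CArG box stood in 2 (those of Actc1 and Myl7), against 1.47%. Only Nppa among the 9 genes held the NKX2-5 element, found in 10.1% of all windows, and Nppa and Pln held TATAAA, found in 12.4%. The TATAAA matches lay 9 to 4 bases before the start in Nppa and 219 to 214 in Pln. Whether they act as a TATA box was not tested. MEF2 sites were searched by the same means, and Mybpc3 held one, against 2.92% of windows.

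Levels are given as normalized CPM, the authors' heading, and each change is a log2 ratio, benzene to air, of CPM + 1, with its SE, which understates the change of low genes. They were tested by limma-trend with Benjamini-Hochberg adjusted p under 0.05 as the threshold. Of the 10 genes, 7 fell with benzene, and the point estimates of the other 3 were negative too. Of all 15706 genes tested, 2.29% were called lower and 3.38% higher, 5.67% in all. In the same 7 genes every benzene lung lay below every air lung, which held for 2.46% of all genes. Without air replicate 5 all 10 genes were called lower (6.95% of all genes were lower and 7.63% higher), and in 9 of them every benzene lung lay below every air lung (4.11% of all genes). The median change was -0.92 for the 10 genes and 0.01 for all genes tested, or -0.77 and 0.00 without air replicate 5. With all libraries, edgeR called 8 of the 10 lower (2.44% of all genes) and DESeq2 9 (5.13%). These genes were chosen with earlier results of these data known, so the counts describe them and do not set them apart from other genes.

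**Figure D1:**
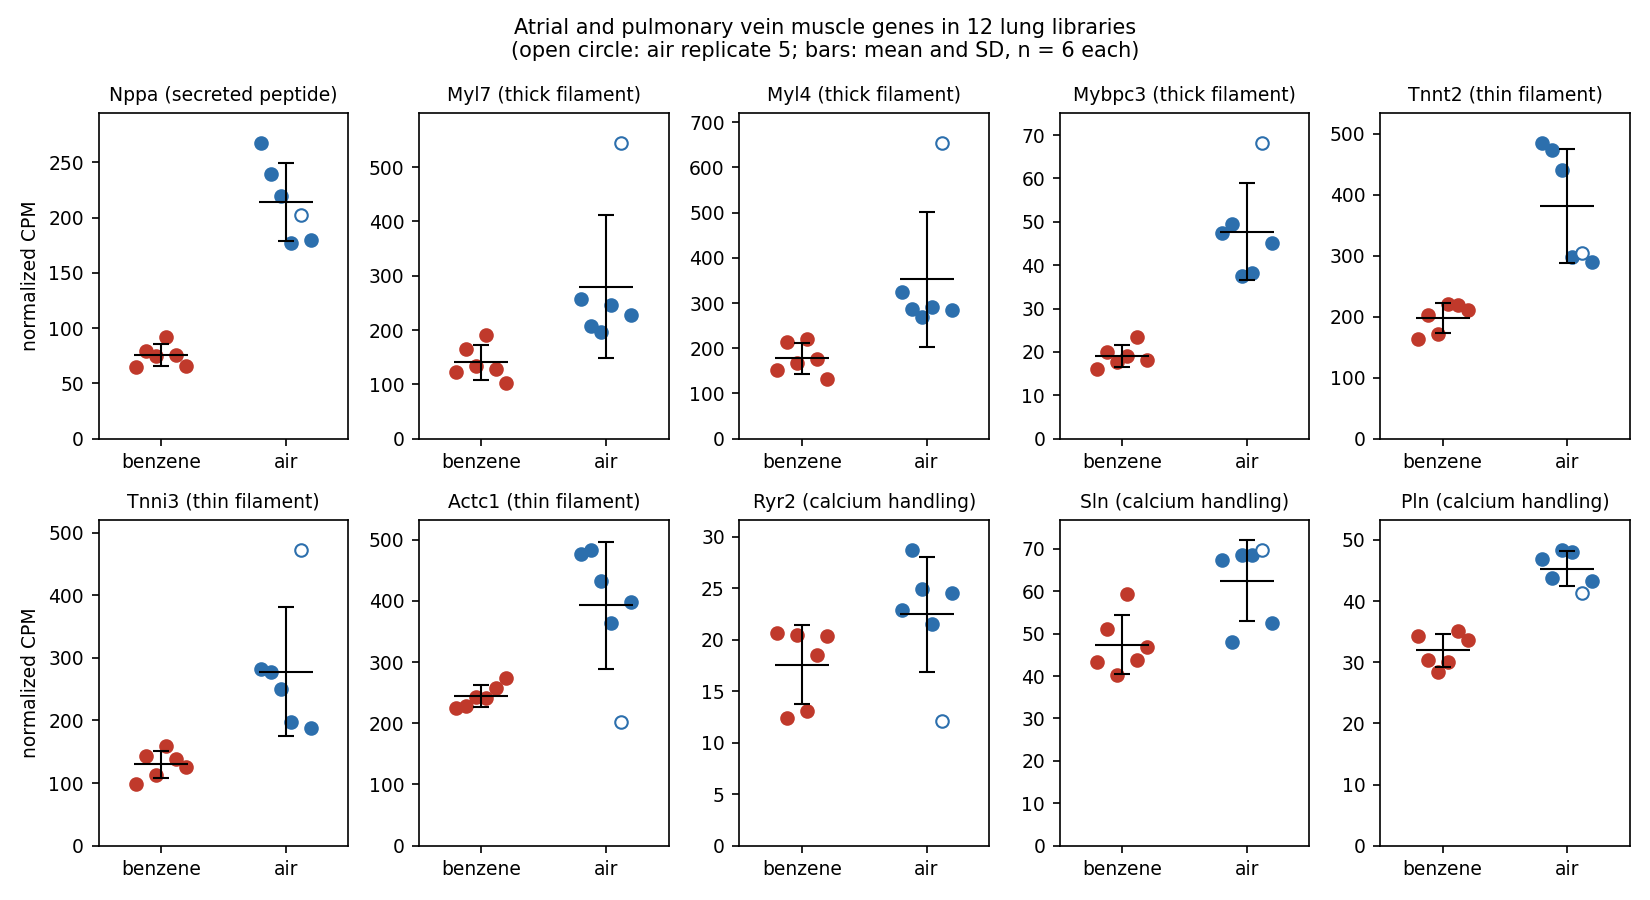
Normalized CPM (y axis, from 0) of each of the 10 genes in 6 benzene and 6 air lung libraries, with the mean and SD as bars. Benzene lungs lay below every air lung for 7 genes, and air replicate 5 (open circle) was the highest air lung for Myl7, Myl4, Mybpc3, Tnni3 and Sln and the lowest for Actc1, Ryr2 and Pln.

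Nppa encodes the precursor of atrial natriuretic peptide, a hormone that promotes salt and water loss. Its level ran from 64.8 (median 75.6) to 92.1 in benzene lungs and from 177 (median 211) to 268 in air lungs. The groups were far apart and did not overlap. The change of -1.49 ± 0.117 (adjusted p = 9.45e-07) was the furthest from 0 of the 10 genes, and benzene lungs held on average 35.2% of the air level. Air replicate 5 had little bearing on it, since the change was -1.50 ± 0.106 without that library.

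Among the thick filament genes, Myl7 encodes the atrial regulatory light chain of myosin. It ran from 103 (median 131) to 191 in benzene lungs and from 197 (median 237) to 545 in air lungs. The highest benzene lung, replicate 4, came close to the lowest air lung, and air replicate 5 lay more than any other library above its group. Myl7 fell by 0.92 on the log2 scale (SE 0.222, adjusted p = 0.0250), and by 0.71 (SE 0.119, adjusted p = 0.000310) without air replicate 5. Its call was lost without benzene replicate 1 (adjusted p = 0.0729), 3 (0.0636), 5 (0.0679) or 6 (0.0738) and without air replicate 1 (0.0523).

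Myl4, the atrial essential light chain, ran from 132 (median 173) to 220.4 in benzene lungs and from 270.1 (median 290) to 654 in air lungs. The libraries stood in much the same order as for Myl7, with air replicate 5 far above the rest and benzene replicates 2 and 4 the highest of their group. The change was -0.93 ± 0.201 (adjusted p = 0.0128), and -0.74 ± 0.105 (adjusted p = 4.98e-05) without air replicate 5.

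Mybpc3 encodes the cardiac myosin-binding protein C, which tunes cross-bridge cycling. It ran from 16.0 (median 18.6) to 23.4 in benzene lungs and from 37.5 (median 46.3) to 68.2 in air lungs. No value lay between 23.4 and 37.5, the widest gap between groups, in proportion, after that of Nppa. It fell by 1.26 on the log2 scale (SE 0.139, adjusted p = 3.04e-05), to 39.9% of the air mean, and by 1.15 (SE 0.103, adjusted p = 5.81e-08) without air replicate 5.

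Among the thin filament genes, both troponin genes fell. Tnnt2, the cardiac troponin T that binds tropomyosin, ran from 163 (median 207) to 221 in benzene lungs and from 291 (median 373) to 485 in air lungs. Its air lungs formed a higher and a lower trio, with replicates 1, 2 and 3 at 441 to 485 and replicates 4, 5 and 6 at 291 to 305, all above the benzene lungs. The change was -0.92 ± 0.150 (adjusted p = 0.00146), and -0.98 ± 0.127 (adjusted p = 1.47e-05) without air replicate 5.

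Tnni3, the inhibitory troponin subunit of the adult heart, ran from 99.1 (median 132) to 159 in benzene lungs and from 188 (median 264) to 472 in air lungs. As for Tnnt2, air replicates 4 and 6 were the lowest of their group, but air replicate 5 was here the highest. Tnni3 fell by 1.04 (SE 0.193, adjusted p = 0.00447), and by 0.87 (SE 0.119, adjusted p = 2.69e-05) without air replicate 5.

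Actc1, cardiac alpha-actin, ran from 224 (median 242) to 274 in benzene lungs and from 203 (median 415) to 483 in air lungs. The overlap rested on air replicate 5 alone, the lowest of all 12 lungs, while the other 5 air lungs had 364 or more. With all libraries the change of -0.63 ± 0.175 missed the threshold (adjusted p = 0.0510). It was -0.81 ± 0.0792 (adjusted p = 2.57e-07) without air replicate 5, and with all libraries it passed by edgeR (adjusted p = 0.0279) and DESeq2 (adjusted p = 0.00272).

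The calcium handling genes had the changes closest to 0. Pln encodes phospholamban, an inhibitor of the calcium pump that is also known from slow skeletal and smooth muscle. It ran from 28.5 (median 32.0) to 35.1 in benzene lungs and from 41.4 (median 45.3) to 48.3 in air lungs. Both groups were tight and did not overlap, and the change was -0.49 ± 0.0812 (adjusted p = 0.00161), or -0.52 ± 0.0792 (adjusted p = 0.000114) without air replicate 5.

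Sln encodes sarcolipin, the related small inhibitor of the pump, which mouse atria and some skeletal muscles make. It ran from 40.2 (median 45.4) to 59.2 in benzene lungs and from 48.0 (median 67.9) to 69.7 in air lungs. Benzene replicates 2 and 4 reached into the air range, whose lowest libraries were replicates 2 and 6. The change of -0.39 ± 0.121 missed the threshold (adjusted p = 0.0771), and it passed by DESeq2 (adjusted p = 0.0306) and without air replicate 5 (-0.35 ± 0.109, adjusted p = 0.0340).

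Ryr2, the calcium release channel, has the longest transcript of the set at 16814 bases. It ran from 12.4 (median 19.4) to 20.6 in benzene lungs and from 12.1 (median 23.7) to 28.7 in air lungs. Its 3 lowest lungs were air replicate 5 and benzene replicates 2 and 4, the libraries with low long transcripts. The change was -0.32 ± 0.195 (adjusted p = 0.337) with all libraries and -0.48 ± 0.133 (adjusted p = 0.0191) without air replicate 5. With benzene replicates 2 and 4 left out as well, a setting chosen after seeing the data, it was -0.28 ± 0.101 (adjusted p = 0.0521).

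**Figure D2:**
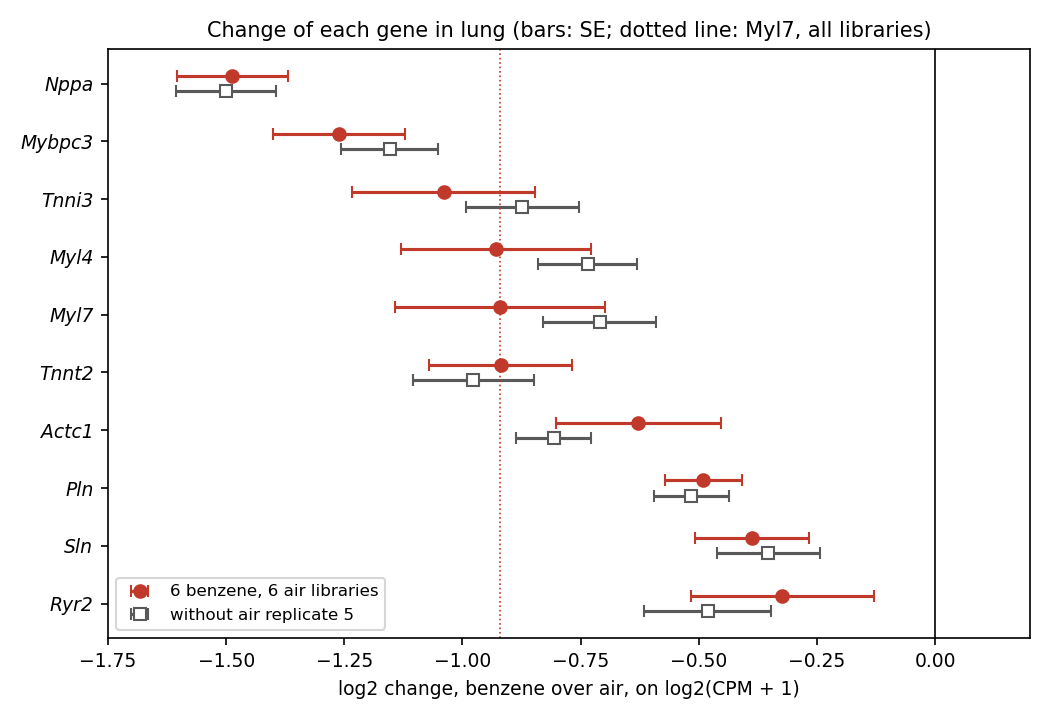
Log2 change of each gene, benzene over air, with its SE as bars, from all 12 libraries (filled) and without air replicate 5 (open). The changes ran from -1.49 for Nppa to -0.32 for Ryr2, and leaving out air replicate 5 moved Actc1 and Ryr2 further from 0 and Myl7, Myl4 and Tnni3 closer to it.

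Whether the genes fell by one common factor was asked by setting each gene against Myl7 in the same library, a ratio that does not depend on the scaling of the library apart from the added 1. Of the other 9 genes, 2 differed from Myl7 in this ratio. Nppa was lower relative to Myl7, by -0.57 ± 0.247 (95% interval -1.09 to -0.04, adjusted p = 0.0433), and Sln was higher relative to Myl7, by 0.53 ± 0.224 (0.06 to 1.01, adjusted p = 0.0373). Of all genes in this fit 87.6% were called, as most did not share the fall of Myl7. Without air replicate 5 the genes that differed were Nppa (-0.79 ± 0.159, adjusted p = 0.000123), Mybpc3 (-0.44 ± 0.182, adjusted p = 0.0235) and Sln (0.36 ± 0.167, adjusted p = 0.0449), beside 89.6% of all genes.

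The ratio of Myl4 to Myl7 was the steadiest. It was 1.15 to 1.38 in benzene lungs and 1.19 to 1.39 in air lungs, air replicate 5 included, with coefficients of variation of 5.81% and 6.62%. The change of that ratio was -0.01 ± 0.132 (95% interval -0.29 to 0.27, adjusted p = 0.950), so a difference of more than 0.29 on the log2 scale lay outside the interval. That interval was -0.31 to 0.26 without air replicate 5. Levels of Myl4 alone varied by 19.5% in benzene lungs and 42.3% in air lungs. Without air replicate 5 they varied by 6.96% in air lungs, close to the 6.57% of the ratio in the same 5 lungs.

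The other ratios to Myl7 had wide intervals that included 0. They were -0.51 to 0.27 for Tnni3, -0.64 to 0.65 for Tnnt2, -0.79 to 0.11 for Mybpc3, -0.50 to 1.09 for Actc1, -0.16 to 1.02 for Pln and -0.26 to 1.46 for Ryr2. Without air replicate 5 they narrowed to -0.50 to 0.17 for Tnni3, -0.63 to 0.09 for Tnnt2, -0.44 to 0.25 for Actc1, -0.18 to 0.57 for Pln and -0.23 to 0.68 for Ryr2, and that of Mybpc3 (-0.81 to -0.07) no longer included 0. In 7 of the other 9 genes the ratio to Myl7 varied more between benzene lungs than the gene itself did, and in 6 of 9 between air lungs, or 8 of 9 without air replicate 5. The exceptions were Myl4 and Nppa in benzene lungs.

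Set against Nppa in place of Myl7, 8 of the other 9 genes were higher in this ratio, from 0.45 ± 0.182 for Tnni3 to 1.16 ± 0.233 for Ryr2, and Mybpc3 did not pass (0.23 ± 0.177, adjusted p = 0.217). Of all genes 99.4% were called in that ratio, as most did not share the fall of Nppa. The count thus shows that these 8 genes fell less than Nppa, but does not set them apart from other genes. Set against Sln, 5 genes were lower, Nppa, Mybpc3, Tnni3, Myl4 and Tnnt2, beside 27.8% of all genes called in either direction. Set against Myl4, the same genes differed as against Myl7, namely Nppa (-0.56, adjusted p = 0.0282) and Sln (0.54, adjusted p = 0.0239), beside 90.6% of all genes. Set against Sln, Myl7 itself missed the threshold (-0.53, adjusted p = 0.0504). Most genes were called against Myl7 and Myl4, so the adjustment there corrects little for the 9 ratios asked. With all libraries, Nppa and Sln thus lay only narrowly outside a single factor shared with Myl7. Against each other Nppa and Sln lay further apart than that. In the ratio to Sln, Nppa was at -1.10 ± 0.157 (adjusted p = 0.000125) and Mybpc3 at -0.87 ± 0.185 (adjusted p = 0.00585). The Nppa call against Myl7 was lost without any 1 of the 11 libraries other than air replicate 5 (adjusted p up to 0.0953), and the Sln call without benzene replicates 1, 5 or 6 or air replicates 2 or 6 (up to 0.0829).

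**Figure D3:**
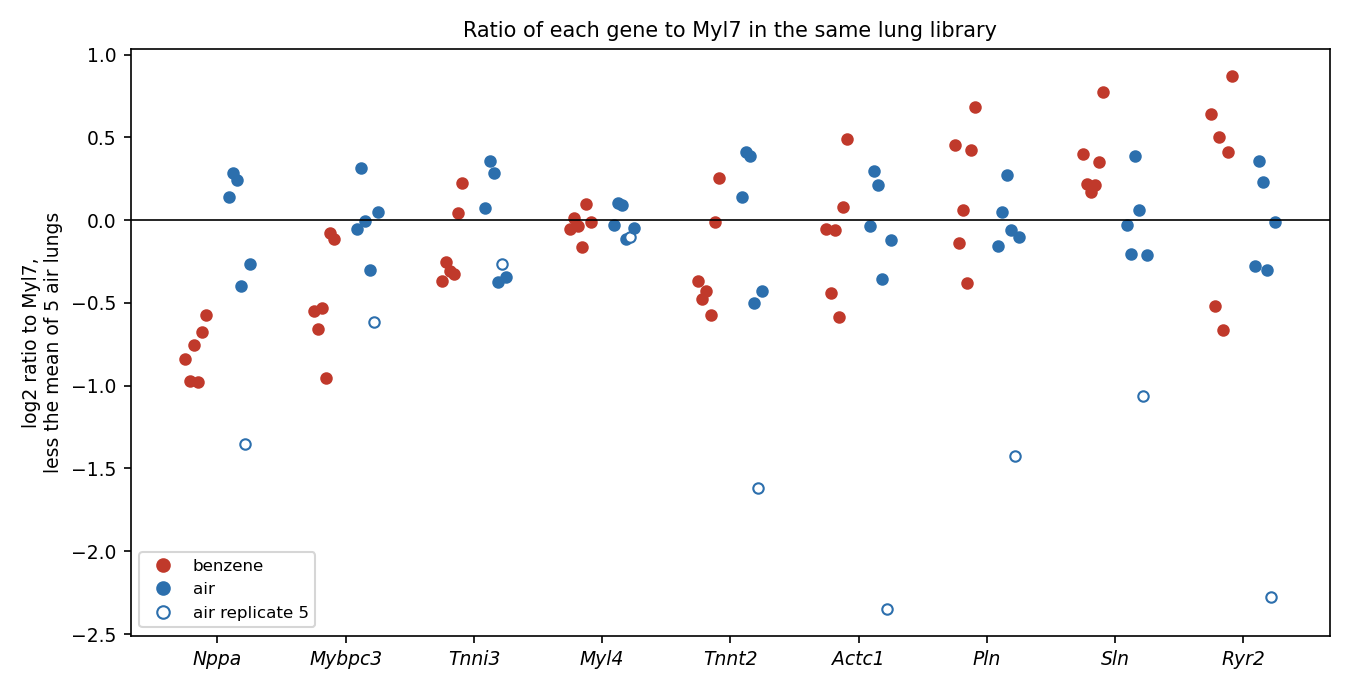
Log2 ratio of each gene to Myl7 in the same lung library, less the mean of the 5 air lungs other than replicate 5, for 6 benzene and 6 air libraries. Nppa ratios of all benzene lungs lay below those of these 5 air lungs, Myl4 ratios were alike in all 12 lungs, and air replicate 5 (open circle) was the lowest lung for Nppa, Tnnt2, Actc1, Pln, Sln and Ryr2.

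Transcript length went with some of these ratios but not with all. The transcripts are 590 bases long for Myl7, 865 for Nppa, 912 for Tnni3, 943 for Myl4, 1200 for Tnnt2, 1318 for Sln, 1473 for Actc1, 2334 for Pln, 4163 for Mybpc3 and 16814 for Ryr2. In air replicate 5, Myl7 and Myl4 stood 1.27 and 1.17 above the mean of the other air lungs on the log2 scale, and Actc1 and Ryr2 stood at -1.07 and -0.95. The long Mybpc3 stood at 0.64 there, and the shorter Nppa and Tnnt2 at -0.08 and -0.34, so the genes did not order by length in that library. In benzene replicates 2 and 4, Myl7 stood at 0.30 and 0.56 and Ryr2 at -0.53 and -0.45. Over all genes the median change with benzene was -0.15 for transcripts under 1 kb and 0.11 for those over 6 kb, or -0.08 and 0.07 without air replicate 5. The part of length in the differences between the 10 genes was not tested. With air replicate 5 and benzene replicates 2 and 4 all left out, 9 of the 10 genes fell, Ryr2 being the exception, beside 12.1% of all genes lower. In that setting 4 genes differed from Myl7, beside 96.3% of all genes: Nppa was lower relative to it, and Sln, Pln and Ryr2 were higher.

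**Figure D4:**
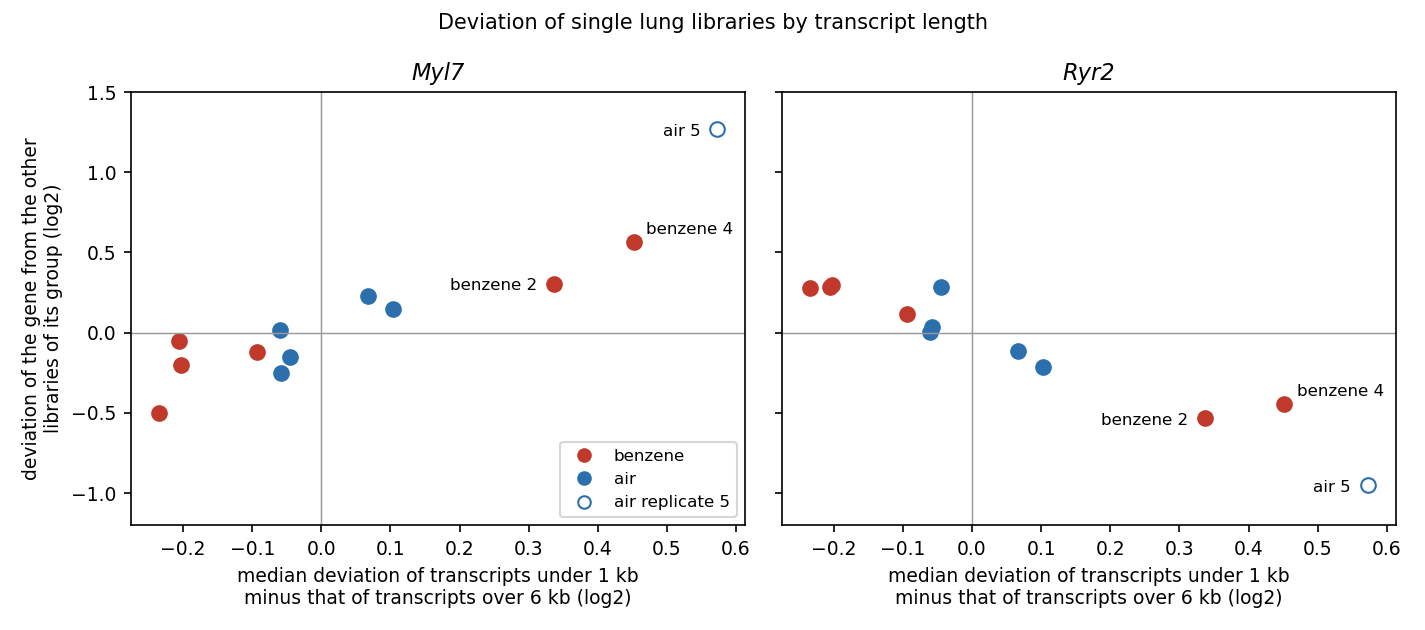
Deviation of Myl7 (590 bases) and Ryr2 (16814 bases) in each of 12 lung libraries from the mean of the other libraries of its group (air replicate 5 left out of the air means), against the median deviation of transcripts under 1 kb minus that of transcripts over 6 kb in the same library, all on the log2 scale. Benzene replicates 2 and 4 and air replicate 5 lie to the right in both panels, high for Myl7 and low for Ryr2.

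By level per kilobase, Myl7 came first and Sln, Pln, Mybpc3 and Ryr2 last in both groups. In benzene lungs Myl7 led with 238 ± 53.9 normalized CPM per kb, followed by Myl4 (188 ± 36.6), Actc1 (166 ± 12.5), Tnnt2 (165 ± 20.8), Tnni3 (142 ± 24.0), Nppa (87.3 ± 11.6), Sln (36.0 ± 5.22), Pln (13.7 ± 1.15), Mybpc3 (4.57 ± 0.597) and Ryr2 (1.04 ± 0.228; SD, n = 6). In air lungs the range was from 475 ± 223 for Myl7 to 1.34 ± 0.333 for Ryr2, and the order between the ends rested on air replicate 5. With it Myl4 (374 ± 158) came before Tnnt2 (319 ± 77.9), Tnni3 (305 ± 113) and Actc1 (266 ± 70.3). Without it Myl7 (385 ± 42.8) was followed by Tnnt2 (331 ± 79.7), Myl4 (309 ± 21.5), Actc1 (292 ± 34.6), Tnni3 (262 ± 48.3) and Nppa (251 ± 45.0; SD, n = 5). Neighbours from Myl7 down to Tnni3 in benzene lungs, and from Myl7 down to Nppa in air lungs, lay within one another's spread, whereas Sln, Pln, Mybpc3 and Ryr2 were each apart from their neighbours in both groups.

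In liver, 2 of the 10 genes were listed and could be read, from a table that was normalized separately. Myl4 had 0.310 to 2.85 normalized CPM in the 5 benzene livers and 0.368 to 1.63 in the 5 air livers. Tnnt2 had 0.207 to 1.88 in benzene livers and 0.206 to 1.30 in air livers. These levels rest on 2 to 33 reads per library, and the groups overlapped. The other 8 genes were not analysed in liver.

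Other genes listed for heart muscle did not all follow, and which cells of the lung their RNA came from was not tested. Of 10 further atrial genes tested, 2 fell and 1 rose, or 5 and 1 without air replicate 5. Mybphl, an atrial relative of the myosin-binding proteins, had 20.5 ± 3.72 in benzene lungs and 37.3 ± 5.20 in air lungs (change -0.84 ± 0.131, adjusted p = 0.000893), and the potassium channel gene Kcnk3 had 40.0 ± 3.48 in benzene lungs and 59.6 ± 10.2 in air lungs (-0.55 ± 0.106, adjusted p = 0.00569). Sbk2, an atrial kinase gene, rose, with 10.2 ± 1.91 in benzene lungs and 5.16 ± 1.87 in air lungs (0.90 ± 0.186, adjusted p = 0.00959). Myh6, the alpha myosin heavy chain and a long transcript, had 293 ± 38.7 in benzene lungs and 485 ± 187 in air lungs, and missed the threshold with all libraries (-0.63, adjusted p = 0.133) but not without air replicate 5 (-0.83, adjusted p = 0.000369).

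Of 4 ventricular genes tested, Myl2 and Myh7 fell (changes -4.33 and -1.26) and Myl3 rose (1.37 ± 0.251, adjusted p = 0.00416). Myl2 was under 1 in every benzene lung and passed the filter through the air lungs alone. Without air replicate 5 it was below the filter, which left 1 lower. Of 15 other sarcomere and Z-disc genes, 5 fell, or 9 without air replicate 5, among them the shared cardiac and slow troponin C gene Tnnc1 (-1.34 ± 0.203, adjusted p = 0.000703) and the alpha-actinin gene Actn2 (-0.98 ± 0.140, adjusted p = 0.000418). Of 11 other calcium handling genes, 4 fell, or 6 without air replicate 5. Casq2, the cardiac calcium store protein, and Hrc, another calcium-binding protein of the reticulum, changed by -1.02 ± 0.123 and -1.02 ± 0.141, about as much as Tnni3. Atp2a2, the calcium pump that sarcolipin and phospholamban inhibit, had 384 ± 49.2 in benzene lungs and 452 ± 122 in air lungs (-0.18, adjusted p = 0.605; -0.40, adjusted p = 0.00245 without air replicate 5).

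Of 9 genes of membrane currents and junctions, 2 fell, among them Bves, a membrane protein of heart and skeletal muscle (-0.63 ± 0.150, adjusted p = 0.0233), and 1 rose, the connexin gene Gja1, which many epithelia also express (0.69 ± 0.175, adjusted p = 0.0331). Of 9 cardiac transcription factors tested, 1 fell: Gata4, at 1.72 ± 0.389 in benzene lungs and 3.24 ± 0.603 in air lungs (-0.64 ± 0.150, adjusted p = 0.0209). Of these factors 1 fell and 1 rose without air replicate 5. Of 9 genes of muscle mitochondria and energy, 6 fell, or 8 without air replicate 5. Ckmt2, the muscle mitochondrial creatine kinase, had 35.2 ± 2.34 in benzene lungs and 138 ± 15.5 in air lungs (-1.93 ± 0.0860), and Fabp3, a fatty acid binding protein of heart and muscle, changed by -1.42 ± 0.210.

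Markers of other muscle and of other cells moved beside the 10 genes. Of 18 fast skeletal muscle genes, 11 fell and 1 rose (list median -0.84), and their summed level was 1222 to 1411 in benzene lungs and 1968 to 2657 in air lungs. The counts were 12 and 1 without air replicate 5, and the air sums then ended at 2104. Of 9 slow skeletal muscle genes tested, 8 fell and 1 rose, with sums of 165 to 216 in benzene lungs and 251 to 431 in air lungs. Of these 9, 3 (Myl2, Tnni1 and Ankrd2) were under 1 in every benzene lung and passed the filter through the air lungs alone, so they had to differ. Of the other 6, 5 fell and 1 rose (median -1.10). With air replicate 5 left out those 3 were below the filter, 5 genes fell and 1 rose (median -1.06). Myl2, Myl3, Myh7, Tnnc1 and Myoz2 also stand in the heart lists, so these counts share genes. Myh2, a fast myosin heavy chain, had 0.328 to 1.33 in benzene lungs and 69.4 to 133 in air lungs, and Pvalb, the calcium buffer of fast fibres, had 2.96 to 7.29 in benzene lungs and 40.4 to 230.3 in air lungs. The slow troponin gene Tnnt1 had 1.84 to 3.65 in benzene lungs and 19.7 to 28.3 in air lungs. The sum of the 10 genes described here was 940.1 to 1246 in benzene lungs and 1734 to 2573 in air lungs, or 1734 to 2278 without air replicate 5.

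Of 11 smooth muscle genes, 4 fell and 1 rose (median -0.41), with sums of 1753 to 1885 in benzene lungs and 2139 to 2902 in air lungs. Leaving out air replicate 5 gave 6 and 1, and air sums that ended at 2483. Tagln and Acta2, contractile proteins of that muscle, changed by -0.78 and -0.57. The pericyte gene Cspg4 and the mesothelial and epithelial keratin gene Krt19 were the only genes of their lists called, at -0.57 and -0.38. All 12 stratified squamous epithelium genes tested rose (median 3.55), of which 2 were under 1 in every air lung and passed the filter through the benzene lungs alone, with sums of 4155 to 4535 in benzene lungs and 285 to 401 in air lungs, led by Asprv1 (3.96), a protease of cornified skin, and Rptn (3.90), a protein of its envelope. The medians were 0.03 for 12 endothelial genes, 0.02 for 8 pericyte genes, 0.02 for 10 alveolar epithelial genes, -0.08 for 6 endocardial and venous genes and -0.12 for 7 mesothelial and epicardial genes. Without air replicate 5, 2 of the endothelial genes fell and 1 of the endocardial and venous genes rose. Of 7 adipocyte genes tested, 3 were lower, the hormone genes Lep (-1.11) and Retn (-0.87) among them. Lep was under 1 in every benzene lung and passed the filter through the air lungs alone. The other 6 had a median of -0.29, with 2 lower, and 3 nerve genes a median of -0.32. The part of these cell types in the fall of the 10 genes was not tested.

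**Figure D5:**
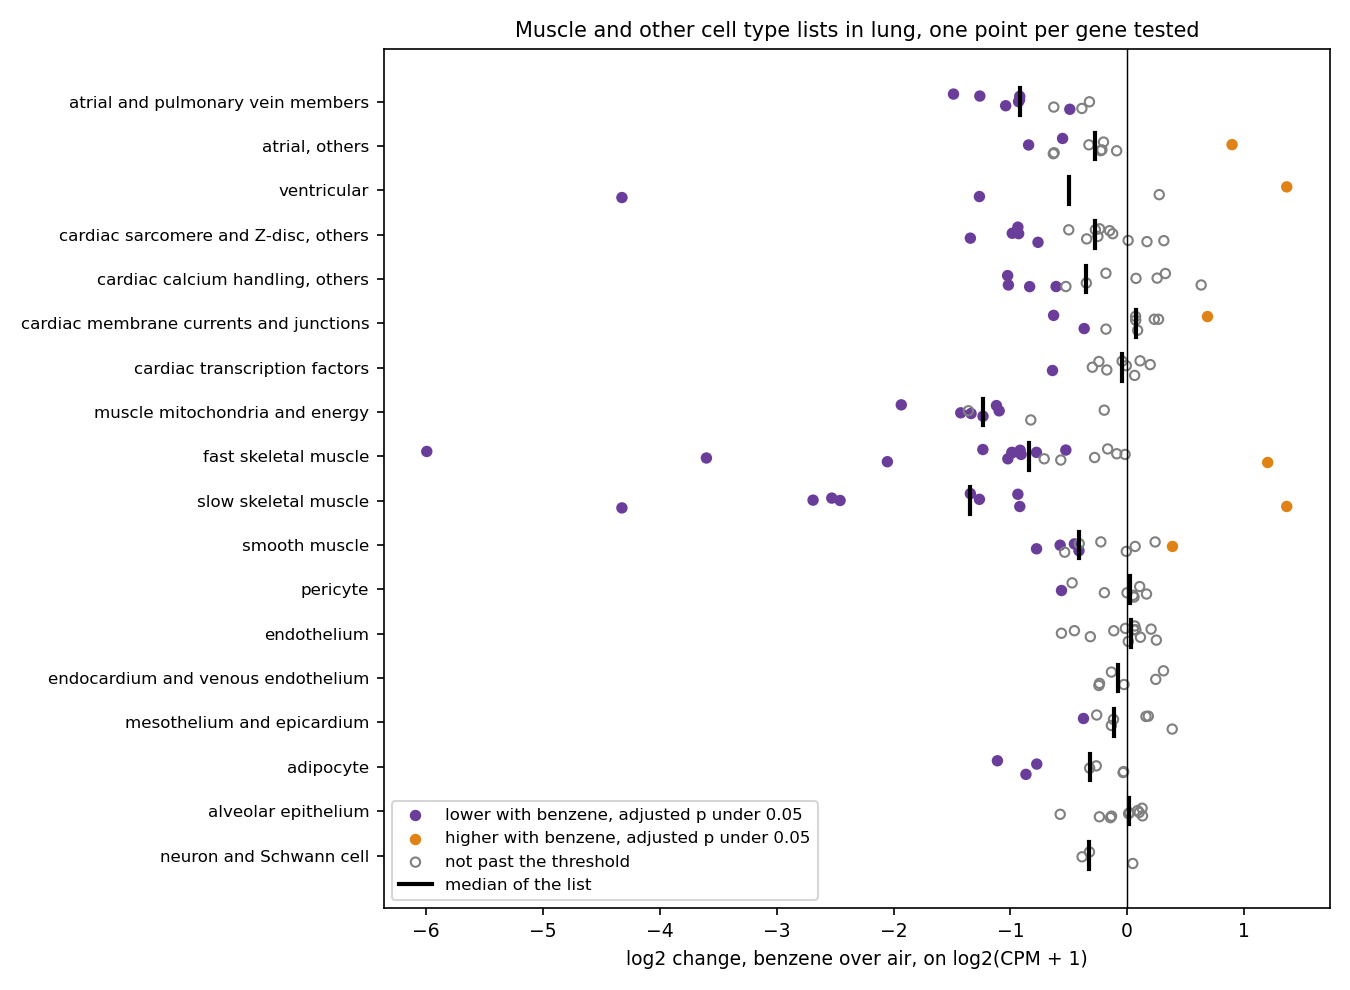
Log2 change, benzene over air, of each gene tested in the lists of muscle and other cell types, with filled points past an adjusted p of 0.05 and the list median as a bar. The 10 atrial and pulmonary vein genes lie between -1.49 and -0.32, while the endothelial, pericyte and alveolar medians lie near 0. The squamous list, with a median of 3.55, is not drawn.

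The genes most like Myl7 within groups stood in none of the heart lists. Over the 11 lung libraries other than air replicate 5, on log2(CPM + 1) after removing each group's mean, the 8 highest correlations among genes outside the set were those of Nudt3, Bex3, Cox5a, Selenbp1, AI413582, Tmem203, Fkbpl and Cystm1 (r = 0.96 to 0.98). The median transcript of these 8 genes is 1131 bases long, against 2848 for all genes tested, and all share the libraries' depth and the length differences given above, so the values only describe likeness. Of the 10 genes, Myl4 came closest (r = 0.94), followed by Sln (0.54) and Nppa (0.52), and Ryr2 was the most unlike (-0.85). The order between these ends rested on leaving out air replicate 5. With it, Myl4 (0.98) was followed by Tnni3 (0.77) and Mybpc3 (0.69), Nppa had 0.19 and Ryr2 -0.94, and Bex3 fell to 0.42.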

How the data were processed

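The authors deposited 1 table each for lung and liver of poly-A RNA libraries (12 and 10). The submitters' processing notes name fastp 0.20.0, STAR, edgeR 3.10 and the build GRCm38. Neither the read counter nor the authors' low-value filter is named by any source used here. The deposited values are normalized signal, headed CPM per the file headers. Every value (100%, tolerance 0.01) is a whole number of reads over 1 factor per library, which gave the depths. The design named the test for normalized values, limma-trend on log2(value + 1) over genes with at least 1 in at least 6 lung libraries. The fit against Myl7 subtracted its log2 value in each library. The 10 genes, the lists and the tests were chosen with earlier results of these data known. Transcript lengths came from GENCODE M21, matching 15950 of 15971 identifiers, and promoters from RefSeq. Named genes were the 10, the 2 called genes with the largest absolute change in each list, and the 8 genes most correlated with Myl7. Kcnk3, Myh6, Myh7, Atp2a2, Nppb, Hey2, Myoz2, Tnni1 and Ankrd2 were named after their values were seen. Tools were R 4.3.3, limma 3.58.1, edgeR 4.0.16, DESeq2 1.42.0, Python 3.11.15 and pandas 2.3.3. The tests were tried on simulated data. On the recovered reads, edgeR called 871 genes and DESeq2 1669, against 891 by limma. Other alternatives were TMM scaling, a pseudocount of 0.1, other filters, array weights, a replicate block, ratios to other genes and leaving out each library.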

Additional observations from a re-analysis of the deposited data

Results flagged for a closer look

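Libraries are named here where the gap from the furthest library to the next was large against the whole range of its group, by Dixon's critical value. Air replicate 5 met this for 3 of the 10 genes in lung. It was also the lowest air lung for Actc1 and Ryr2, where the gap was under that value. Myl7 was 545 in that library and 197 to 257 in the other 5. Myl4 was 654, against 270.1 to 325, and Tnni3 was 472, against 188 to 282. Transcripts under 1 kb were high in the same library, and its listed values summed higher than those of any other lung library. The part of either in the 3 genes was not tested. In liver, Myl4 was 2.85 in benzene replicate 4, against 0.310 to 0.620 in the other benzene livers, and 1.63 in air replicate 4, against 0.368 to 0.701 in the other air livers. Both rest on few reads. Chance alone would flag about 1 in 20 groups, and 5 of 24 combinations of gene and group were flagged.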

How the results depend on the processing

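All 10 changes stayed negative under every alternative run. The number of genes called in lung was 891, and it was 414 with a replicate block, 3215 with array weights, 1669 by DESeq2 and 3663 without benzene replicates 2 and 4 and air replicate 5, a setting chosen after seeing the data. Leaving out single libraries gave 502 to 2284 genes, 6 to 10 of the 10 members lower, 0 to 3 members differing from Myl7 and 11245 to 14180 genes differing from Myl7. The highest of these counts came without air replicate 5, apart from the 14180 genes differing from Myl7, which came without air replicate 3. The members differing from Myl7 were 2 in number, against 0 by limma with the replicate block (0 also at an unadjusted p under 0.05), 5 with array weights and 4 without those 3 libraries. Against Nppa there were 8 and against Sln 5, with 4366 genes of the table differing from Sln. The ratio call of Nppa was lost without any single library other than air replicate 5, and that of Sln without benzene replicates 1, 5 or 6 or air replicates 2 or 6. Changes relative to Myl7 that turned sign were all of genes not called. With array weights they were Myl4 (0.048) and Tnni3 (0.016), and without the 3 libraries Tnnt2 (-0.14). With single libraries left out, Myl4 ran from -0.032 to 0.019, Tnnt2 from -0.27 to 0.14 and Actc1 from -0.10 to 0.43. Replicate numbers did not pair the libraries: same-numbered deviations correlated at -0.36 to 0.10, and 0 of 6 matched best with their own number. With the block 6 members fell, as Myl7 missed the threshold (adjusted p = 0.0625). TMM scaling, a pseudocount of 0.1 and other filters left the calls of the members as they were.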
